A study of Mus musculus with 9 samples.

Results

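The genes described here are 204 named genes whose RNA was moderately lower in mouse embryonic stem cells (ESCs) after knockdown of either Dppa2 or Dppa4. They were chosen by their values. A gene was taken where its control mean was above 0 on the deposited log2 scale, its mean with Dppa2 siRNA and its mean with Dppa4 siRNA each lay 0.7 to 4 below the control mean, and all 6 knockdown libraries lay below all 3 control libraries. Names with certain prefixes or endings that mark provisional loci, gene families of the 2-cell-like state, and 8 single genes, among them the siRNA targets themselves, were set aside by name, which removed 15 of the 219 genes that met the rule on values. Of the 11142 named genes with a control mean above 0, 1.83% met the rule. The mirror image of the rule, with all knockdown libraries above all controls, was met by 54 (0.485%). The mirror image keeps the limit on the control mean, which leaves out genes that are low in control and higher in the knockdowns. The 2 counts are therefore not a like comparison of lower with higher genes. As differences from control chose the 204 genes, they are given as a description, with no test.

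Dppa2 and Dppa4 are small nuclear proteins of pluripotent cells and early embryos that carry a SAP domain, bind each other, and associate with chromatin. They are known for their role in the expression of transcripts of the early embryo in the rare 2-cell-like cells of ESC cultures. Many genes of the germ line and of later lineages are held at low levels in ESCs by DNA methylation or by chromatin marks.

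E14 ESCs, an established male mouse line of the 129/Ola background, were grown without feeders in serum with LIF. The study describes its knockdown cells as ESCs that carry MERVL::tdTomato and Zscan4c::eGFP reporters. The cells were transfected at the start and again after 48 h with control, Dppa2, or Dppa4 siRNA pools and collected 96 h (4 d) after the start. Polyadenylated RNA was sequenced in 3 libraries per treatment, named A, B, and C, so that all groups share the line and the transfection and differ in the siRNA. The study calls its samples biological replicates, and how their cultures were kept apart is not given in the sources used here.

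The targeted genes were checked first. Dppa2 measured 7.26, 7.16, and 6.94 in the control libraries, 3.36, 3.86, and 3.68 in the Dppa2 siRNA libraries, and 7.01, 7.17, and 7.03 in the Dppa4 siRNA libraries, so that the Dppa2 siRNA mean was 8.93% of control. Dppa4 measured 7.02, 7.11, and 7.06 in the control libraries, 7.11, 7.07, and 7.17 in the Dppa2 siRNA libraries, and 6.16, 6.14, and 6.09 in the Dppa4 siRNA libraries, and its mean with Dppa4 siRNA was 52.4% of control. Both siRNAs therefore went with a lower RNA level of their own target and not of the partner. Far more Dppa4 than Dppa2 transcript was left. These are RNA values only. By Western blotting the study reports that Dppa4 siRNA also lowered Dppa2 protein, and that Dppa2 siRNA lowered Dppa4 protein to a smaller degree. Its qRT-PCR gave a larger decrease of Dppa4 mRNA than was found here.

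Depth differed between libraries: a value of 0 on the deposited scale stood for about 26.5 to 57.7 reads in the control, 18.4 to 28.0 in the Dppa2 siRNA, and 22.3 to 30.9 in the Dppa4 siRNA libraries. Among 16 genes of naive pluripotency, none passed the test in either knockdown by limma at an adjusted p below 0.05. In each comparison 2 of them had an unadjusted p below 0.05. Over all 14601 tested genes, 15.7% had such an unadjusted p with Dppa2 siRNA and 18% with Dppa4 siRNA. The summed linear level of these genes was 4579 to 5304 in control, 5193 to 5370 in Dppa2 siRNA, and 5053 to 5220 in Dppa4 siRNA cells. In contrast, 19 of 19 tested markers of 2-cell-like cells were lower in both knockdowns, beside 2.27% of all 14601 tested genes lower and 1.16% higher with Dppa2 siRNA, and 2.34% lower and 1.1% higher with Dppa4 siRNA. Genes were tested where at least 3 libraries exceeded a value of -2. Most of the 19 markers did so in the control libraries only, which fixed the direction of their calls in advance. The count of 19 fell to 5 in both comparisons when a control library was left out. In linear terms the summed level of the 20 markers in the table was 165 to 205 in control cells against 1.33 to 2.20 and 1.70 to 2.25. Whether the loss of the markers of this rare cell state has a part in the lower values of the 204 genes was not tested, and in RNA from whole cultures fewer cells of a type and less RNA per cell cannot be told apart. Of 18 tested markers of primitive endoderm, Hnf4a was higher with Dppa2 siRNA and Hnf4a, Gata6, and Sox17 were higher with Dppa4 siRNA, while their summed level overlapped between the groups (797 to 1017, 865 to 987, and 873 to 912). Of 17 tested markers of early differentiation, none passed by limma, with 5 and 3 at an unadjusted p below 0.05 in the 2 comparisons.

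Over the 204 genes, the median log2 difference from control was -1.20 in the Dppa2 knockdown and -1.26 in the Dppa4 knockdown, or 43.4% and 41.7% of the control level, beside medians of 0.02 and 0.03 over all tested genes. A percentage of control is 2 raised to the difference between the log2 means, and where a pair of percentages is given, the first is for Dppa2 siRNA and the second for Dppa4 siRNA. In all, 117 genes lay below 50% of control in both knockdowns and 19 lay below 25% in both. The distance from the lowest control library to the highest knockdown library ranged from 0.04 to 2.52, with a median of 0.59, and was under 0.1 in 8 genes. Complete separation of this kind, which the rule requires, was found in 5.75% of all tested genes, and the reverse in 5.97%. Counting error was large for some genes, as 18 of the 204 held 3 or fewer reads in at least 1 knockdown library and 4 of these (Sycp1, Col17a1, H2-Q6, and Ptgds) held 0 in 1 library. The median of the 204 genes was 0.13 to 0.18 in the 6 knockdown libraries, beside 1.42 to 1.46 in the 3 control libraries.

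**Figure D1:**
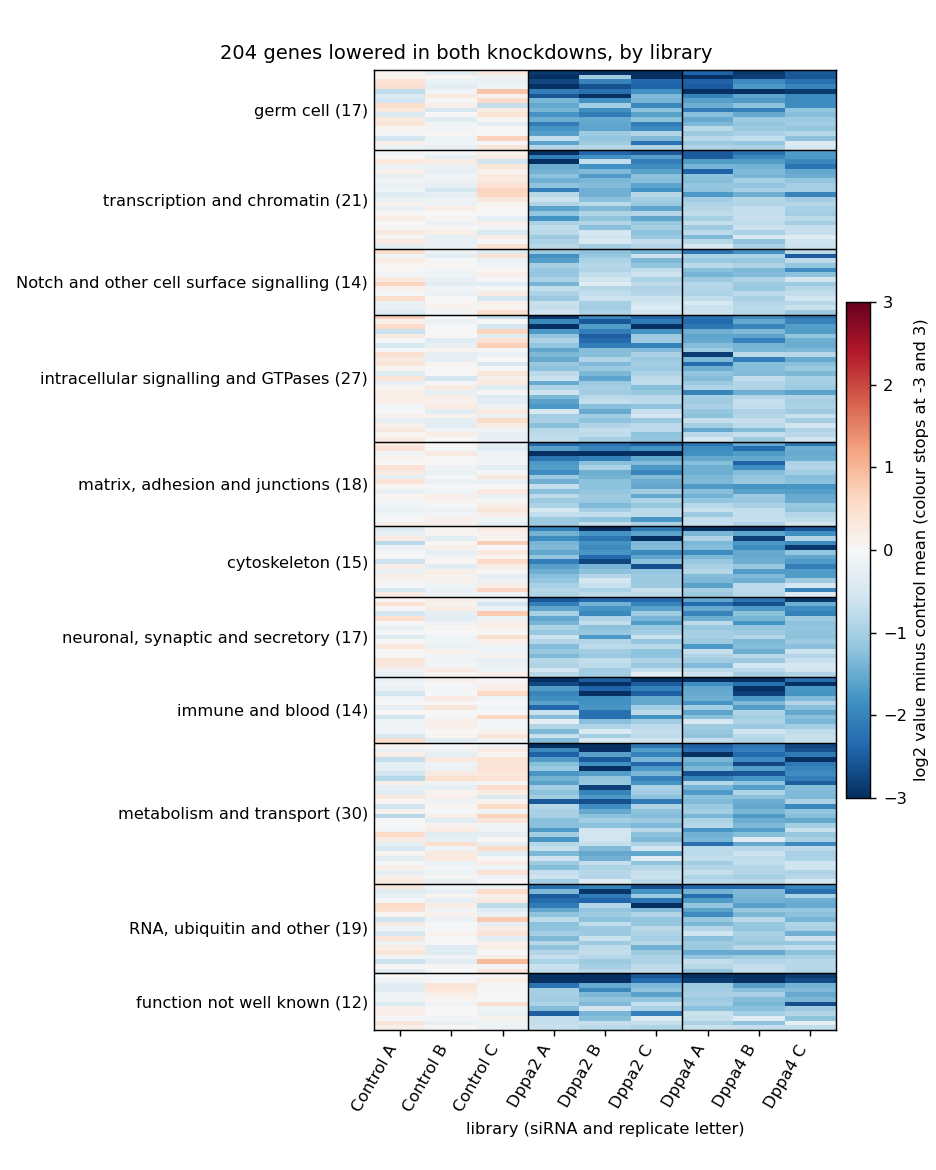
Heat map of the 204 genes (rows, grouped by function) in the 9 libraries (columns), as the deposited log2 value minus the control mean of the gene, with blue for lower and red for higher values and the colour capped at -3 and 3. Every row is bluer in the 6 knockdown libraries than in the 3 control libraries, as the rule fixes, and the depth of the colour differs between genes within each function.

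On the smaller of its 2 differences from control, Dll3 was just inside the limit of 0.7, with differences of -0.70 and -0.87, and Nt5dc3 followed with -0.80 and -0.70, Ocln with -0.93 and -0.70, and Spic with -0.92 and -0.70. Just outside were Glcci1 (-0.69 and -0.93), Fam59b (-0.87 and -0.69), Fzd9 (-0.69 and -0.76), and Fgf13 (-0.69 and -1.45). At the other end, Col17a1 (-3.82 and -1.68) and H2-Q6 (-3.31 and -3.54) were nearest to the limit of 4, and Spesp1 (-3.30 and -4.13) and Cd3e (-4.39 and -2.53) lay just outside it. The limits thus cut through a continuous range of values.

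Genes of the germ line formed the group with the lowest level left in the Dppa2 knockdown. The 17 genes included parts of the piRNA pathway, which silences transposons in germ cells, of meiosis, and of sperm metabolism. Their median was 29.7% of the control level with Dppa2 siRNA and 34.9% with Dppa4 siRNA, and their differences from control were -3.29 to -0.87 in the Dppa2 knockdown and -3.45 to -0.80 in the Dppa4 knockdown.

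Of the germ cell genes, Stk31 (chr6:49395604-49469501, plus strand), a tudor domain kinase of germ cells, measured 2.96, 2.83, and 3.45 in the control libraries, 2.21, 2.24, and 2.18 in the Dppa2 siRNA libraries, and 2.16, 2.13, and 2.56 in the Dppa4 siRNA libraries. The RNA helicase gene Ddx4 (chr13:112598333-112652310, minus strand), the Vasa homolog that marks germ cells, measured 3.27, 2.79, and 2.59 in the control libraries, 0.79, 1.32, and 0.82 in the Dppa2 siRNA libraries, and 1.54, 1.69, and 1.83 in the Dppa4 siRNA libraries. Mov10l1 (chr15:88982909-89055152, plus strand), a helicase needed to make piRNAs, measured 2.8, 2.63, and 2.71 in the control libraries, 0.95, 1.13, and 0.82 in the Dppa2 siRNA libraries, and 1.91, 1.59, and 1.55 in the Dppa4 siRNA libraries. In all 3 genes the control libraries lay above the knockdown libraries, as the rule requires. For Ddx4 and Mov10l1 each of the Dppa2 siRNA libraries was also below each of the Dppa4 siRNA libraries. The group means (SD, n = 3) of Ddx4 in control, Dppa2 siRNA, and Dppa4 siRNA cells were 2.88 ± 0.35, 0.98 ± 0.30, and 1.69 ± 0.15, and the knockdown levels were 26.7% and 43.7% of control.

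Dazl, an RNA-binding protein gene required for germ cell development, measured 2.7, 2.13, and 2.13 in control, -0.41, 0.31, and -0.03 in Dppa2 siRNA, and -0.1, 0.4, and 0.09 in Dppa4 siRNA cells. This corresponded to 19.5% and 22% of control with Dppa2 and Dppa4 siRNA, respectively. Taf7l, a testis form of a TFIID subunit, was left at 11.3% and 16.4%, and Dmrtb1, a DM domain factor of spermatogonia, at 18.4% and 28%. Among other genes of the piRNA pathway, the co-chaperone gene Fkbp6 was left at 28.2% and 39.3% and the tudor gene Tdrd1 at 37.8% and 42.9%.

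Sycp1, which encodes the transverse filament of the synaptonemal complex, measured 0.82, 0.04, and 0.23 in control, -4.49, -2.25, and -2.04 in Dppa2 siRNA, and -2.15, -1.35, and -1.59 in Dppa4 siRNA cells. Its value in library A of the Dppa2 siRNA cells stood for 0 reads, and the other knockdown libraries held 4 to 12 reads against 31 to 59 in the controls. Spata22, a factor of meiotic recombination, was left at 32.4% and 54.1%, but 80.5% of its exons lie within an overlapping annotated gene on the same strand, so its reads could not be assigned to it alone. The crossover factor gene Tex11 was left at 43.4% and 50.9%.

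The sperm forms of mitochondrial proteins were also among them, with the ADP/ATP carrier Slc25a31 at 17.6% and 12.6% and the testis cytochrome c Cyct at 34.6% and 30%. The reproductive homeobox genes Rhox1 and Rhox13 were left at 24.2% and 9.18% and at 47.2% and 52.5%. Rbm44, an RNA-binding protein gene of germ cell bridges, was left at 35.4% and 34.9%, and Nlrp14, an NLR gene of oocytes and testis, at 35.7% and 29%. Rhox1 is the germ cell gene with the lowest level in Dppa4 siRNA cells, where its libraries held 2 to 5 reads against 28 to 75 in the controls. The plot of germ cell genes gives every library.

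**Figure D2:**
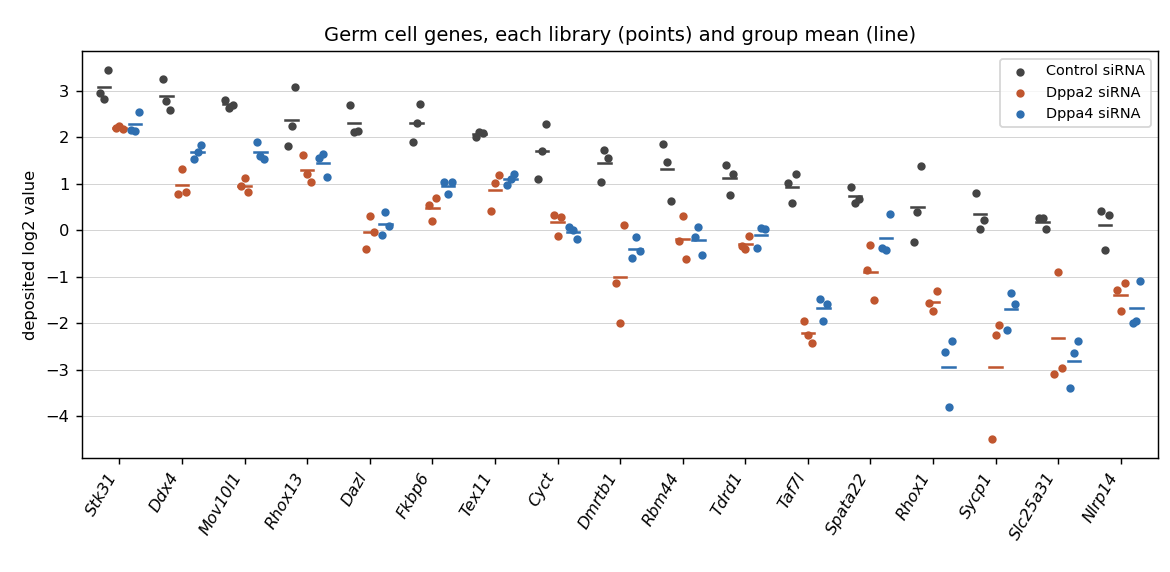
Deposited log2 values (vertical axis) of the 17 germ cell genes in each library (points) with the group mean (line), for control (grey), Dppa2 siRNA (orange), and Dppa4 siRNA (blue). The control points lie above all knockdown points in each gene, as the rule fixes, and the lowest Sycp1 point stands for 0 reads.

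The promoters of this group are shown because 8 of them hold the same hexamer. RefSeq promoters of GRCm38.p6 were at hand for 14 of the 17 genes (82.4%; all but Nlrp14, Rbm44, and Tex11). The 250 bases before the start were searched for CACGTG (an E-box, the same on both strands), GGCGGGA (an E2F motif), and TATAAA, the last 2 on either strand. The 3 motifs cannot overlap each other by more than single end bases. CACGTG was found in 8 of the 14 promoters (57.1%), beside 6.02% of all 32851 promoters of that table at the same length and 8.47% of the 11069 tested genes that have an entry. Such a match is a description of the letters, and binding at these sites was not measured. Windows of 80 bases that hold the E-box are printed 5′ to 3′ on the strand of the gene, with the motifs searched in capitals. They are for Ddx4 chr13:112652311-112652390, minus strand, Fkbp6 chr5:135350045-135350124, minus strand, Mov10l1 chr15:88982744-88982823, plus strand, Slc25a31 chr3:40708741-40708820, plus strand, Stk31 chr6:49395447-49395526, plus strand, Sycp1 chr3:102936152-102936231, minus strand, Taf7l chrX:134476497-134476576, minus strand, and Tdrd1 chr19:56826129-56826208, plus strand.
Ddx4: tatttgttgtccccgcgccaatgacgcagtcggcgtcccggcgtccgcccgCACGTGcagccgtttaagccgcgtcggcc
Fkbp6: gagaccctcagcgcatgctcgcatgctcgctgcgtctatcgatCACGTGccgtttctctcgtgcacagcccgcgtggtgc
Mov10l1: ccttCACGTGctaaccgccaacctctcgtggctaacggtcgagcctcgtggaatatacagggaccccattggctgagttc
Slc25a31: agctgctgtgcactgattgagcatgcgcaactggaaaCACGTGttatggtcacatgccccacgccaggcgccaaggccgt
Stk31: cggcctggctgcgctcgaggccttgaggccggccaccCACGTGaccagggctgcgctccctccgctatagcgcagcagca
Sycp1: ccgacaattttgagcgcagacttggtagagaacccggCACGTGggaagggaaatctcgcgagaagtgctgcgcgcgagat
Taf7l: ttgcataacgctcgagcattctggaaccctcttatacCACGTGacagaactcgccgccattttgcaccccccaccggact
Tdrd1: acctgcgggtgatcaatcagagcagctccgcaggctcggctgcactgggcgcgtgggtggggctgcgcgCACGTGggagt
The first base of the E-box lay 11 bases before the start in Tdrd1, 29 in Ddx4, 49 in Taf7l, 93 in Slc25a31, 94 in Sycp1, 120 in Stk31, and 246 in Mov10l1, and Fkbp6 held 2 copies, at 37 and 101. The position thus varied over the whole window. The 8 genes range from Stk31, with the mildest decrease of the group, to Sycp1 and Taf7l, with the largest in the Dppa2 knockdown.

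For the other 6 germ cell genes with a promoter entry, the last 80 bases before the start are given so that they can be set beside these. They lie at chr2:76360454-76360533, minus strand (Cyct), chr17:50293621-50293700, minus strand (Dazl), chr4:107684231-107684310, minus strand (Dmrtb1), chrX:37222259-37222338, minus strand (Rhox1), chrX:38120760-38120839, plus strand (Rhox13), and chr11:73329661-73329740, plus strand (Spata22).
Cyct: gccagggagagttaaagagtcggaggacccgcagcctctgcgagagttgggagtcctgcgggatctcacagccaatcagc
Dazl: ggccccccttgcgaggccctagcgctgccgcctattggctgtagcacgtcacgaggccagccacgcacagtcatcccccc
Dmrtb1: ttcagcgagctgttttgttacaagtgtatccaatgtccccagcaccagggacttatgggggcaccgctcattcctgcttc
Rhox1: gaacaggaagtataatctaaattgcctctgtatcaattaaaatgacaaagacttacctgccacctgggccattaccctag
Rhox13: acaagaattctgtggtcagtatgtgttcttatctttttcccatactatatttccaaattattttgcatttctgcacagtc
Spata22: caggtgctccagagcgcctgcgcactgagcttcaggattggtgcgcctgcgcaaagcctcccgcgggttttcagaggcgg
Of the 14 promoters, 10 held 10 or more CpG sites in the 250 bases (71.4%), from 31 in Ddx4 down to 0 in Rhox1, beside 37.8% of all promoters of the table and 73.1% of the tested genes that have an entry. GGCGGGA was found in 1 of the 14 (Ddx4) and TATAAA in 2 (Stk31 and Taf7l), beside 9.75% and 12.4% of all promoters and 18.4% and 6.28% of the tested genes that have an entry. The promoters of Dazl and Spata22 hold 20 and 22 CpG sites but none of the 3 motifs. The absence of these letters from a window says nothing about the factors that bind there.

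Promoters of the 2 genes of other groups with the highest control mean among those in the table, Tuba3a (chr6:125286082-125286161, minus strand) and Marveld1 (chr19:42147309-42147388, plus strand), are printed for comparison and hold no E-box. Outside the germ cell group the hexamer was found in Erap1, Fgfrl1, Flrt2, Hoxd13, Lat, Ldhd, Lingo3, Lonrf3, and Mgll. An entry was found for 149 of the 204 genes (73.0%), which was too few for a statement on the promoters of all 204.
Tuba3a: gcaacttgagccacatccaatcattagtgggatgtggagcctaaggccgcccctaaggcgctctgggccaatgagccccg
Marveld1: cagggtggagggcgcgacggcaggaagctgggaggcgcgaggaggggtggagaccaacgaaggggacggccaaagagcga

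Besides the 204 genes, germ cell genes were examined as a list of 68 symbols, of which 56 were tested and 16 (28.6%) are among the 204, beside 1.4% of all tested genes. The list was written with earlier results of these data known, so the share is not independent evidence. Of the other 40 tested germ cell genes, 6 were lower and 3 higher with Dppa2 siRNA, and 5 were lower and 3 higher with Dppa4 siRNA, by limma at an adjusted p below 0.05. The meiotic and oocyte genes that were lower in both included Mael, Syce1, Sohlh2, and Sohlh1, a bHLH partner of Sohlh2. Mael, Syce1, and Sohlh2 met the rule on values and had been set aside by name only. Their calls rest on the values that the rule used and add no separate support. Sohlh1 differed from control by -3.49 (SE 0.50, adjusted p = 0.00583) and -3.50 (SE 0.50, adjusted p = 0.00622) with Dppa2 and Dppa4 siRNA. Genes were tested where at least 3 libraries exceeded -2, and for Sohlh1 these were the 3 control libraries only. The direction of its calls was thus fixed in advance, and they add no separate support. Rpl10l, a testis ribosomal protein gene, differed by -0.52 (SE 0.10, adjusted p = 0.0264) and -0.60 (SE 0.10, adjusted p = 0.0132). Tex19.1, a germ line and placental gene, differed by -0.73 (SE 0.16, adjusted p = 0.0469) and -0.49 (SE 0.16, adjusted p = 0.151) in the 2 comparisons. Under other settings of the fit, the calls of Rpl10l were lost in 9 and 6 of 16 alternatives and that of Tex19.1 in 10 of 16.

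Not all germ cell genes were lower. Ldhc, the lactate dehydrogenase of sperm, was higher in both knockdowns, by 1.21 (SE 0.19, adjusted p = 0.00873) and 0.88 (SE 0.19, adjusted p = 0.0396). Hormad2, a protein of meiotic chromosome axes, was higher by 1.01 (SE 0.21, adjusted p = 0.0367) and 1.0 (SE 0.21, adjusted p = 0.0373), and the oocyte NLR gene Nlrp4f by 0.91 (SE 0.14, adjusted p = 0.00862) and 1.05 (SE 0.14, adjusted p = 0.00473). The calls of Hormad2 were lost in 9 and 9 of 16 alternatives, those of Ldhc in 2 and 10, and those of Nlrp4f in 2 and 0. Of the 33 symbols of the Rhox homeobox cluster, 6 genes were tested, of which Rhox1 and Rhox13 (33.3%) are among the 204, beside 1.4% of all tested genes. This list was also written with earlier results known. None of the other 4 passed by limma, with 0 and 2 at an unadjusted p below 0.05, beside 15.7% and 18% of all tested genes.

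Regulators of transcription and chromatin numbered 21, and their median was 39% of the control level with Dppa2 siRNA and 50.5% with Dppa4 siRNA. Of the 2 knockdown means, the lower one was that with Dppa2 siRNA in 16 of these genes and that with Dppa4 siRNA in 5, beside 115 and 89 of all 204, and no single gene passed the test between the knockdowns that is given at the end. Zfp560 (chr9:20345136-20385177, minus strand), a zinc finger gene, measured 3.09, 3.02, and 3.45 in the control libraries, 1.74, 1.82, and 1.9 in the Dppa2 siRNA libraries, and 1.92, 2.18, and 2.03 in the Dppa4 siRNA libraries. Sox3 (chrX:60891370-60893430, minus strand), an X-linked SOX factor of neural progenitors, measured 2.94, 2.87, and 3.55 in the control libraries, 1.92, 1.82, and 1.55 in the Dppa2 siRNA libraries, and 1.96, 1.93, and 2.1 in the Dppa4 siRNA libraries. Sox21, a SOX factor that counteracts the SoxB1 proteins, measured 3.15, 3.06, and 2.44 in the control libraries, 2.07, 2.39, and 1.66 in the Dppa2 siRNA libraries, and 2.09, 1.94, and 2.19 in the Dppa4 siRNA libraries. The knockdown libraries of Zfp560 and Sox3 stood well apart from the controls, whereas the highest knockdown library of Sox21 lay about 0.05 below the lowest control.

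Factors of segmentation and nerve cells were also found in this group. Mesp2, a bHLH factor of somite segmentation, was left at 35.2% and 55.5% of control with Dppa2 and Dppa4 siRNA, respectively. Insm1, a zinc finger factor of neuroendocrine cells, was left at 34.8% and 56.3%, and Pou4f1 (Brn3a), a factor of sensory neurons, at 51.9% and 54.1%. The Sp family members Sp5, a known Wnt target, and Sp8 were left at 29.2% and 48.1% and at 52.8% and 61%.

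Several factors belong to other lineages. Foxa1, a pioneer factor of endoderm, was left at 23.8% and 29.5%, Cebpa, a factor of liver and myeloid cells, at 38% and 38.6%, and Gata2, a factor of blood progenitors, at 50.2% and 56.3%. Hoxd13, which patterns the distal limb, was left at 36.6% and 29.5%, and Sox18, a factor of endothelial cells, at 15.4% and 22.6%. Spic, an ETS factor of macrophages, was left at 52.9% and 61.4%, Nkx6-3, a homeobox factor of the stomach, at 50.7% and 50.5%, and Stox1, a winged helix gene, at 28% and 24%. Foxa1 and Sox18 rest on few reads, with 3 to 16 and 3 to 7 reads in the knockdown libraries.

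General chromatin and elongation proteins made up the rest. Mllt3 (AF9), a reader of acylated histones, was left at 50% and 57.1%, and Aff3, of the AF4 family, at 61.1% and 54.3%. Hmgn3, a nucleosome-binding protein, was left at 48.8% and 30.3%, the PR domain gene Prdm11 at 50.7% and 55.8%, and the zinc finger gene Zscan5b at 30% and 31.4%. Of 19 SOX genes, 14 were tested and 3 are among the 204, beside 1.4% of all tested genes, on a list written with earlier results known. Of the other 11, none passed with Dppa2 siRNA, with 5 at an unadjusted p below 0.05, and Sox17, a factor of endoderm, was higher with Dppa4 siRNA, with differences of 0.74 (SE 0.25, adjusted p = 0.176) and 1.20 (SE 0.25, adjusted p = 0.0348) in the 2 comparisons. The call of Sox17 was lost in 8 of 16 alternatives. With Dppa2 siRNA, 15.7% of all tested genes had an unadjusted p below 0.05 by limma.

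The 14 genes of Notch and other cell surface signalling had the mildest decreases, with a median of 55.6% of the control level with Dppa2 siRNA and 51.4% with Dppa4 siRNA. Notch signalling passes between neighbouring cells, in which ligands of the Delta and Jagged families on one cell activate Notch receptors on the next, and Fringe enzymes add sugars to the receptor that alter its response. Jag1 (chr2:137081456-137116644, minus strand) measured 4.16, 3.57, and 3.76 in the control libraries, 2.86, 3.24, and 2.87 in the Dppa2 siRNA libraries, and 2.74, 2.91, and 3.27 in the Dppa4 siRNA libraries. Dll1 (chr17:15367354-15376872, minus strand) measured 3.58, 3.34, and 3.16 in the control libraries, 1.72, 2.42, and 2.02 in the Dppa2 siRNA libraries, and 2.24, 2.23, and 2.57 in the Dppa4 siRNA libraries. The knockdown libraries of each ligand overlapped each other and, as the rule requires, lay below the controls. Dll1 was left at 40.4% and 49.6% and Jag1 at 55.7% and 55.2% of control. Dll3, a divergent ligand that does not activate the receptor, was left at 61.5% and 54.8%, and the Fringe gene Mfng at 59.3% and 60.2%.

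The Notch pathway was examined as a list of 37 genes, 34 of them tested. Of these, 5 (14.7%) are among the 204, beside 1.4% of all tested genes, on a list written with earlier results known. They are Jag1, Dll1, Dll3, Mfng, and the segmentation factor Mesp2, which is described above with the regulators of transcription. Of the 29 tested genes that are not among the 204, Dlk1, a noncanonical ligand, was lower in both knockdowns, with differences of -1.11 (SE 0.13, adjusted p = 0.00161) and -0.65 (SE 0.13, adjusted p = 0.0246), and no other gene of the list passed in either direction. The call of Dlk1 with Dppa4 siRNA was lost in 9 of 16 alternatives. Among the 29, receptors, processing enzymes, and nuclear targets of the pathway, such as the Notch, Psen, and Hes genes, therefore gave no call. By limma, 5 and 6 of the 29 were at an unadjusted p below 0.05, beside 15.7% and 18% of all tested genes. The median of the 29 was -0.01 in the Dppa2 knockdown and -0.09 in the Dppa4 knockdown, beside 0.02 and 0.03 over all tested genes.

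Growth factor genes of this group were led by Igfbp3 (chr11:7206086-7213923, minus strand), which binds insulin-like growth factors and measured 4.86, 4.72, and 5.14 in the control libraries, 3.96, 4.17, and 4.04 in the Dppa2 siRNA libraries, and 3.99, 4.13, and 4.17 in the Dppa4 siRNA libraries. Fgf1, a fibroblast growth factor, was left at 49.8% and 51.4%, and Fgfrl1, an FGF receptor that lacks the kinase domain, at 60.7% and 61%. Lrig1, which restrains receptors of the EGF family, was left at 56.1% and 51.5%, and the receptor phosphatase gene Ptprj at 55.9% and 49.7%. Ptprj had the smallest distance of all 204 genes between the lowest control and the highest knockdown library (0.04).

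The hedgehog modulators Gas1, a co-receptor, and Gpr161, a receptor of the cilium, were left at 55.4% and 40.4% and at 57.2% and 58.3%. Slit2, the ligand of Robo receptors, was left at 42.1% and 32.9%, Gfra4, a co-receptor of the GDNF family, at 43.7% and 36.5%, and the PACAP receptor gene Adcyap1r1 at 52.5% and 35.7%.

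**Figure D3:**
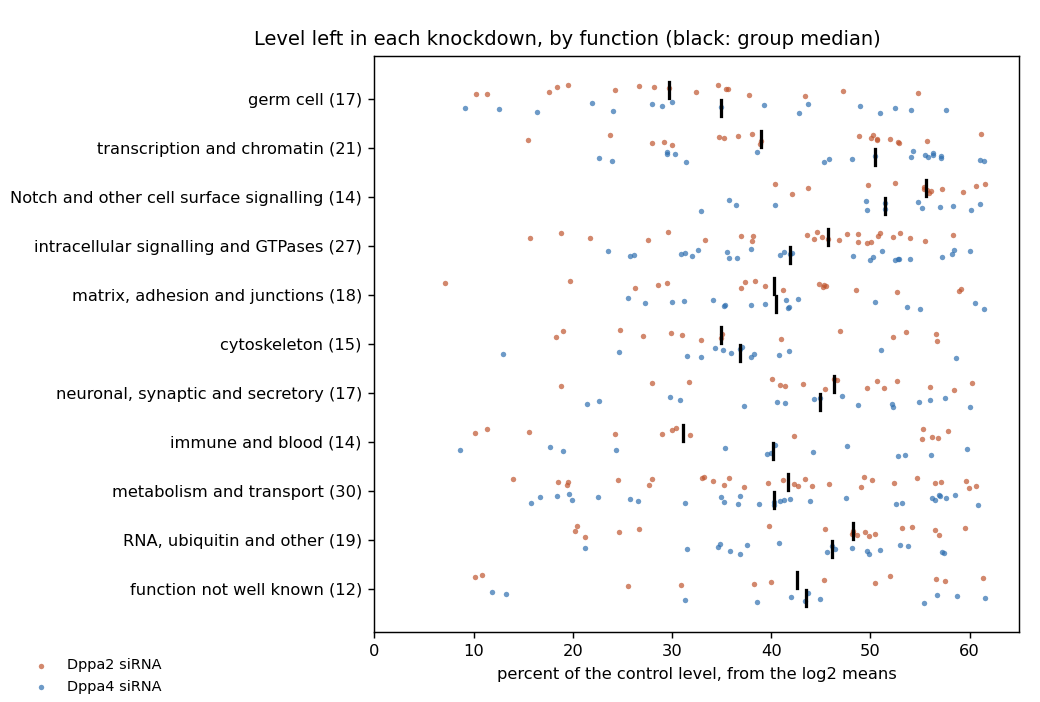
Level left in each knockdown as a percent of the control level (horizontal axis, from the log2 means) for every gene, by function, with orange points for Dppa2 siRNA, blue points for Dppa4 siRNA, and a black bar for the median. The medians run from 29.7% in germ cell genes to 55.6% in genes of Notch and other cell surface signalling with Dppa2 siRNA, and from 34.9% to 51.4% in the same 2 groups with Dppa4 siRNA.

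Intracellular signalling was represented by 27 genes, with a median of 45.7% of the control level with Dppa2 siRNA and 41.9% with Dppa4 siRNA. Rasip1 (chr7:45627488-45639093, plus strand), a Ras-interacting protein of endothelial cells, measured 3.77, 3.75, and 4.6 in the control libraries, 3.07, 2.84, and 2.93 in the Dppa2 siRNA libraries, and 3.33, 3.35, and 3.02 in the Dppa4 siRNA libraries, and 20.4% of its exons are shared with the overlapping gene Izumo1. Ddit4l, an inhibitor of mTORC1, measured 3.22, 3.6, and 3.93 in the control libraries, 2.79, 2.23, and 2.62 in the Dppa2 siRNA libraries, and 2.4, 2.28, and 2.24 in the Dppa4 siRNA libraries. Arhgap44, a GTPase-activating protein gene, measured 3.55, 3.66, and 3.27 in the control libraries, 2.71, 2.74, and 2.28 in the Dppa2 siRNA libraries, and 2.69, 2.81, and 2.66 in the Dppa4 siRNA libraries. All 3 were left at 41.3% to 58.4% of control. Larger decreases were seen for the exchange factors Prex2, which activates Rac, at 15.6% and 26.2%, and Arhgef26 at 18.8% and 23.5%.

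Prex2 measured 4.06, 3.42, and 2.94 in control, 0.18, 1.79, and 0.41 in Dppa2 siRNA, and 1.32, 1.48, and 1.82 in Dppa4 siRNA cells, and Arhgef26 measured 3.55, 2.84, and 2.19 in control, -0.05, 0.94, and 0.46 in Dppa2 siRNA, and 0.62, 0.99, and 0.71 in Dppa4 siRNA cells. For each, the control libraries exceeded the highest knockdown library by more than 1 on the log2 scale. Dock11, an exchange factor for Cdc42, was milder with 58.3% and 42.1%.

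Protein kinase C genes and their relatives differed in the level left. Prkch was left at 21.7% and 25.8%, Prkcb at 54% and 48.3%, and Prkd1 at 44.3% and 32%. In the same route, which runs through diacylglycerol, the phospholipase C gene Plcb1 was left at 52.2% and 30.9% and the diacylglycerol kinase gene Dgkk at 43.6% and 35.6%. Other kinase genes were Map3k5 (ASK1), which acts in stress signalling, at 50.8% and 58.2% and Brsk2, of the AMPK-related family, at 51% and 60.1%.

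The adenylyl cyclases Adcy2 and Adcy7, which make cAMP, were left at 29.6% and 37.9% and at 44.7% and 32.6%. Of a list of 25 cyclases, phosphodiesterases, and the PACAP receptor, 19 were tested. Of the 16 that are not among the 204, Adcy3 was lower with Dppa4 siRNA, with differences of -0.61 (SE 0.18, adjusted p = 0.128) and -0.93 (SE 0.18, adjusted p = 0.0285) in the 2 comparisons, and none passed with Dppa2 siRNA (3 at an unadjusted p below 0.05). With Dppa2 siRNA, 15.7% of all tested genes had an unadjusted p below 0.05 by limma. The call of Adcy3 was lost in 6 of 16 alternatives. Nos3, the endothelial nitric oxide synthase, was left at 38.2% and 41.9% of control, and the phosphatase genes Ptpn7, Dusp26, and Ppp2r2c (a regulatory subunit of PP2A) at 45.7% and 50.3%, at 37% and 31.3%, and at 45.1% and 40.9%.

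Calcium-binding proteins and adaptors made up the remainder. S100a16 was left at 27.6% and 35.8% and Cabp7 at 47.6% and 51.2%, both EF-hand proteins. The adaptors She, Sh3kbp1, and Sh3tc2 were left at 48.7% and 52.8%, at 55.5% and 52.8%, and at 38.1% and 54%. Tbc1d12 and Tbc1d4, which carry the TBC domain of Rab GTPase regulators, were left at 50% and 52.5% and at 49.7% and 50%, and the Ras effector gene Rassf5 at 33.3% and 36.6%.

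The matrix, adhesion, and junction group held 18 genes, with a median of 40.3% of the control level with Dppa2 siRNA and 40.5% with Dppa4 siRNA. Coch (chr12:51593341-51605773, plus strand), a secreted protein of the inner ear, measured 3.74, 3.23, and 3.42 in the control libraries, 1.6, 2.0, and 1.5 in the Dppa2 siRNA libraries, and 2.01, 2.16, and 2.41 in the Dppa4 siRNA libraries. Col2a1 (chr15:97975602-98004695, minus strand), the fibrillar collagen of cartilage, measured 3.2, 3.27, and 3.49 in the control libraries, 2.37, 1.99, and 2.19 in the Dppa2 siRNA libraries, and 2.48, 2.35, and 2.18 in the Dppa4 siRNA libraries. Itgb4 (chr11:115974709-116008412, plus strand), the integrin subunit of hemidesmosomes, measured 3.2, 3.34, and 3.2 in the control libraries, 2.17, 2.13, and 2.32 in the Dppa2 siRNA libraries, and 2.08, 2.11, and 1.77 in the Dppa4 siRNA libraries. In all 3 genes the controls lay above the knockdown libraries, as the rule requires. The libraries of the 2 knockdowns overlapped in Col2a1 and nearly touched in Coch and Itgb4.

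Acan, the large proteoglycan of cartilage, was left at 19.7% and 25.5%, Fbn1, the main microfibril protein, at 37% and 38%, and the collagen receptor gene Ddr2 at 28.6% and 27.3%. The elastin-associated genes Emilin1 and Emilin3 were left at 39.4% and 60.6% and at 45.6% and 39.4%, and Antxr1, a matrix-binding receptor, at 38.3% and 42.7%. Of 41 genes of fibrillar and cartilage matrix, 34 were tested and 7 (20.6%) are among the 204, beside 1.4% of all tested genes. This list was also written with earlier results known, so the share is not independent evidence. Of the other 27, Emilin2 was lower with Dppa2 siRNA, with differences of -1.88 (SE 0.43, adjusted p = 0.0484) and -0.64 (SE 0.43, adjusted p = 0.508), and Col5a1 and Ltbp1 were lower with Dppa4 siRNA. Ltbp1, which binds latent TGF-β, differed by -0.48 (SE 0.15, adjusted p = 0.143) and -1.21 (SE 0.15, adjusted p = 0.00302), and the collagen gene Col5a1 by -0.62 (SE 0.15, adjusted p = 0.0606) and -0.69 (SE 0.15, adjusted p = 0.0403). The call of Emilin2 was lost in 11 of 15 alternatives and that of Col5a1 in 11 of 16, while that of Ltbp1 held in all 16.

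Hemidesmosomes anchor epithelial cells to the basement membrane, and their collagen gene Col17a1 measured 0.69, 1.05, and 0.63 in control, -2.38, -2.25, and -4.47 in Dppa2 siRNA, and -1.04, -0.92, and -0.72 in Dppa4 siRNA cells. It held 0 to 5 reads in the Dppa2 siRNA, 13 to 16 in the Dppa4 siRNA, and 40 to 117 in the control libraries, and was left at 7.07% and 31.2%. Evpl, envoplakin of the desmosome and cornified envelope, was left at 45.2% and 35.3%, and the tight junction gene Ocln at 52.6% and 61.4%. Of 28 tested genes of epithelial anchoring and junctions, 4 are among the 204, beside 1.4% of all tested genes. The list was written with earlier results known. Of the other 24, Krt14, a keratin of basal epithelium, was lower in both knockdowns, with differences of -2.85 (SE 0.55, adjusted p = 0.0272) and -3.47 (SE 0.55, adjusted p = 0.0107), and Lad1, an anchoring filament gene, was higher with Dppa2 siRNA, with differences of 0.56 (SE 0.12, adjusted p = 0.0388) and 0.47 (SE 0.12, adjusted p = 0.0726). The calls of Krt14 were lost in 4 and 2 of 12 alternatives and that of Lad1 in 10 of 16. Krt14 exceeded the filter value of -2 in only 3 libraries, the fewest with which a gene was tested. It thus entered the test mainly through the group in which it was high, and the direction of its calls was tied to the filter. The keratins Krt8 and Krt18 and the junction genes Cdh1 and Epcam gave no call.

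Further surface and matrix genes were Itgb3, an integrin subunit of platelets, at 59.1% and 53.7%, Msln (mesothelin) at 58.9% and 55%, Cdcp1 at 37.3% and 34.2%, the galectin Lgals4 at 41.2% and 41.7%, the collagen Col22a1 at 44.8% and 30%, and Flrt2, a ligand of latrophilins and Unc5 receptors, at 26.2% and 35.2%. Flrt2 had the largest decrease of these with Dppa2 siRNA.

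Cytoskeletal genes numbered 15 and had a median of 35% of the control level with Dppa2 siRNA and 36.9% with Dppa4 siRNA. Tuba3a (chr6:125278274-125286042, minus strand), an α-tubulin of testis, measured 5.02, 5.32, and 5.38 in the control libraries, 3.82, 3.46, and 3.62 in the Dppa2 siRNA libraries, and 3.86, 3.66, and 3.39 in the Dppa4 siRNA libraries. Of its transcript, 33.9% of the 50-base stretches examined are also found in other genes, mainly Tuba3b, so the value may hold reads of both. Epb4.1l3, a protein 4.1 gene of the membrane skeleton, measured 2.94, 2.86, and 2.48 in the control libraries, 1.47, 1.88, and 1.66 in the Dppa2 siRNA libraries, and 1.45, 1.42, and 1.08 in the Dppa4 siRNA libraries. Smtnl1, of the smoothelin family of muscle, measured 1.75, 2.6, and 3.27 in the control libraries, 1.14, 0.75, and 1.19 in the Dppa2 siRNA libraries, and 1.17, 0.83, and 0.63 in the Dppa4 siRNA libraries. The control libraries of Smtnl1 were spread over more than 1 log2 unit, with library A lowest, and stayed above the knockdown libraries as the rule requires.

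ESCs form no sarcomeres, but several genes of this group are known from muscle. The Z-disc genes Pdlim3 and Ldb3 were left at 18.3% and 13% and at 53.5% and 51%, and the sarcomere genes Myom1 and Mybpc3 at 27.1% and 38.3% and at 56.7% and 41.8%. Axonemal genes of cilia and flagella included the dynein heavy chain Dnahc10 at 19% and 34.3%, the tektin Tekt2 at 41% and 38%, and Ccdc135, of the dynein regulatory complex, at 24.8% and 37.1%. Among actin regulators, the bundling protein gene Pls1 was left at 52.3% and 40.8%, Wipf1 at 56.7% and 58.7%, and Limch1, which binds non-muscle myosin, at 29.9% and 35.1%. The unconventional myosins Myo7a and Myo15b were left at 31% and 35.9% and at 35% and 24.7%.

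Neuronal, synaptic, and secretory genes numbered 17, with a median of 46.3% of the control level with Dppa2 siRNA and 44.9% with Dppa4 siRNA. Nefh (chr11:4938754-4948064, minus strand), the heavy neurofilament, measured 4.9, 4.81, and 4.98 in the control libraries, 3.56, 3.79, and 3.7 in the Dppa2 siRNA libraries, and 3.99, 4.08, and 4.02 in the Dppa4 siRNA libraries. Camk2b (chr11:5969644-6066362, minus strand), a subunit of the calcium-dependent kinase of synapses, measured 3.81, 4.05, and 4.15 in the control libraries, 3.05, 2.78, and 2.87 in the Dppa2 siRNA libraries, and 2.87, 2.85, and 2.81 in the Dppa4 siRNA libraries. Odz3, now called teneurin 3, a transmembrane protein that guides synaptic partners, measured 4.23, 3.75, and 3.64 in the control libraries, 3.02, 3.14, and 2.95 in the Dppa2 siRNA libraries, and 2.83, 2.78, and 3.2 in the Dppa4 siRNA libraries. For Nefh every Dppa2 siRNA library was below every Dppa4 siRNA library, whereas the knockdown libraries of Camk2b and Odz3 overlapped.

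Postsynaptic and vesicle genes included Hpca, a calcium sensor of the hippocampus, at 31.8% and 30.8%, Homer2, a postsynaptic scaffold, at 50.7% and 44.3%, Amph, which acts in vesicle recovery, at 46.3% and 47.2%, and Rims1, which acts in vesicle release, at 51.4% and 37.3%. Neto2, a partner of kainate receptors, was left at 40.9% and 40.6%, and Tmem90b (Syndig1), which acts on AMPA receptors, at 58.4% and 60%. The teneurin receptor Lphn3 (latrophilin 3) was left at 28% and 22.6%, and the adhesion protein gene Nrcam at 41.4% and 41.4%. Gad1, which makes GABA, was left at 52.6% and 57.5%, the enkephalin precursor Penk at 49.6% and 48.8%, the calcium-binding protein calretinin (Calb2) at 40.1% and 29.8%, and the axon-related membrane proteins Lingo3 and Rtn4rl1 at 60.2% and 56% and at 45.5% and 52.2%.

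Of 43 neurofilament and synaptic genes, 39 were tested and 12 (30.8%) are among the 204, beside 1.4% of all tested genes. The list was again written with earlier results known. Of the other 27, Tubb3, a tubulin of neurons, was lower with Dppa2 siRNA, with differences of -0.54 (SE 0.11, adjusted p = 0.0369) and -0.30 (SE 0.11, adjusted p = 0.193), and none passed with Dppa4 siRNA by limma (6 at an unadjusted p below 0.05). The call of Tubb3 was lost in 9 of 16 alternatives. Nefm and Nefl, the partners of Nefh in the neurofilament, gave no call. Of 13 tested teneurins, latrophilins, and related genes, Odz3, Lphn3, Flrt2, and Lrig1 (30.8%) are among the 204, beside 1.4% of all tested genes. This list was also written with earlier results known. Of the other 9, the netrin receptor gene Unc5a was higher with Dppa2 siRNA, with differences of 1.41 (SE 0.28, adjusted p = 0.0287) and 0.85 (SE 0.28, adjusted p = 0.145), and none passed with Dppa4 siRNA (2 at an unadjusted p below 0.05). The call of Unc5a was lost in 10 of 15 alternatives. With Dppa4 siRNA, 18% of all tested genes had an unadjusted p below 0.05 by limma.

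**Figure D4:**
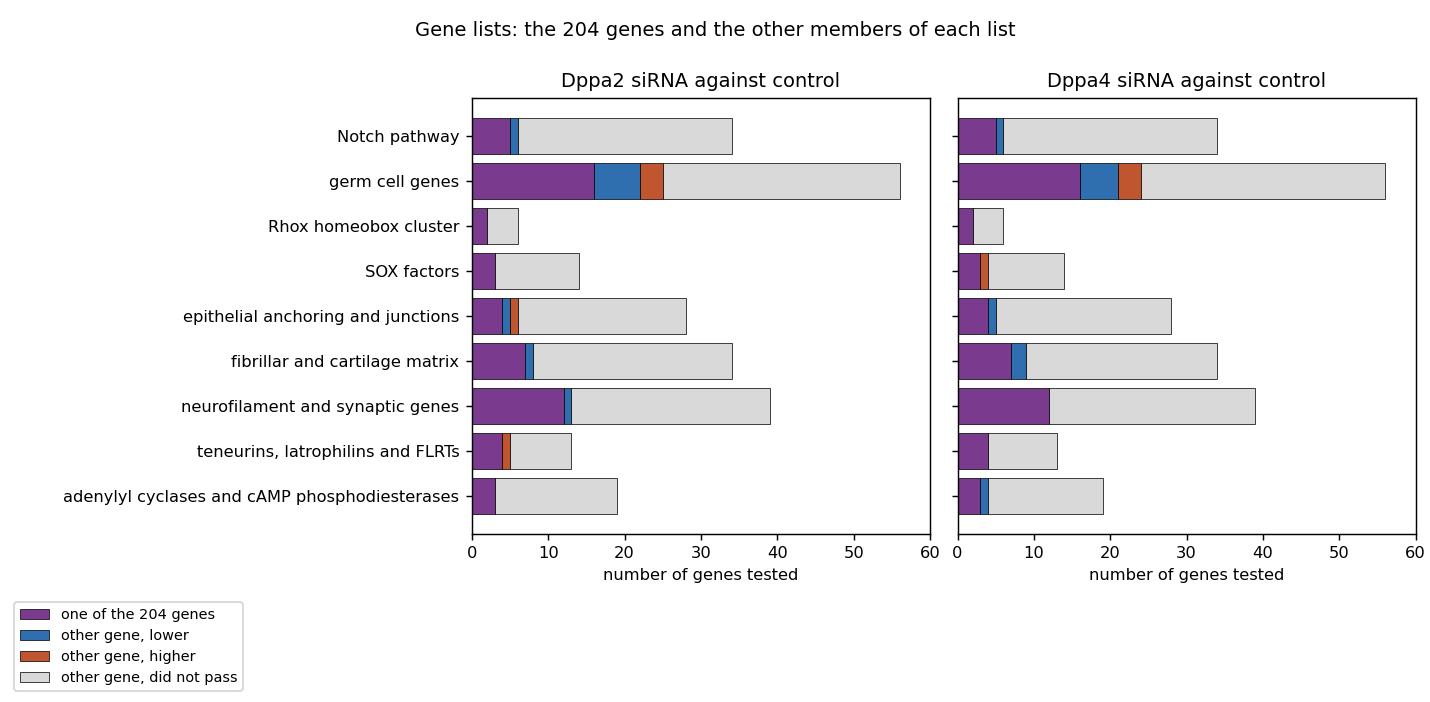
Number of tested genes (horizontal axis) of 9 gene lists that are among the 204 genes (purple), or are other genes that were lower (blue), higher (orange), or did not pass (grey) by limma at an adjusted p below 0.05, for Dppa2 siRNA (left) and Dppa4 siRNA (right) against the same controls. In every list most of the other genes did not pass. The germ cell list has the most genes lower besides the 204, with 6 and 5. These include Mael, Syce1, and Sohlh2, which met the rule on values and were set aside by name. Sohlh1, also among them, entered the test through its control libraries only.

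Genes of immune and blood cells numbered 14, with a median of 31.1% of the control level with Dppa2 siRNA and 40.2% with Dppa4 siRNA. Cd24a (chr10:43579169-43584262, plus strand), a surface glycoprotein, measured 5.0, 5.25, and 5.06 in the control libraries, 4.23, 4.2, and 4.32 in the Dppa2 siRNA libraries, and 4.03, 4.0, and 4.08 in the Dppa4 siRNA libraries. Lat, the adaptor of the T cell receptor, measured 1.04, 1.53, and 2.21 in the control libraries, 0.29, -0.66, and -0.2 in the Dppa2 siRNA libraries, and 0.33, 0.58, and 0.34 in the Dppa4 siRNA libraries. Unc13d, which acts in granule release, measured 0.96, 1.27, and 1.03 in the control libraries, 0.82, -0.17, and 0.05 in the Dppa2 siRNA libraries, and 0.6, 0.17, and -0.28 in the Dppa4 siRNA libraries. Cd24a showed the tightest libraries of the 3, while library A of Dppa2 siRNA came within 0.15 of the lowest control for Unc13d.

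Lymphocyte surface genes included Cd6 at 11.3% and 17.7% and Cd79a, of the B cell receptor, at 30% and 35.3%. Il23a, an interleukin subunit, was left at 24.3% and 19%, the mannose receptor Mrc1 of macrophages at 31.8% and 40%, and the leukotriene enzyme Alox5 at 30.4% and 40.4%. F2 (prothrombin) was left at 15.6% and 24.4%, the peptidase inhibitor Serpinb1a at 56.9% and 53.4%, the lipid raft gene Rftn1 at 56.2% and 56.1%, and Erap1, which trims peptides for MHC class I, at 57.8% and 59.7%. The class I gene H2-Q6 was left at 10.1% and 8.61%, with 0 to 5 reads in the knockdown libraries, and 32.1% of its stretches are shared with other H2 genes.

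Metabolism and transport was the largest group with 30 genes and had a median of 41.7% of the control level with Dppa2 siRNA and 40.3% with Dppa4 siRNA. Glrx2 (chr1:143739029-143749676, plus strand), a glutaredoxin of mitochondria, measured 4.26, 4.41, and 4.99 in the control libraries, 3.87, 3.69, and 3.87 in the Dppa2 siRNA libraries, and 3.84, 3.67, and 3.65 in the Dppa4 siRNA libraries. Crabp1 (chr9:54764748-54773110, plus strand), which binds retinoic acid, measured 3.25, 3.9, and 4.4 in the control libraries, 3.0, 1.99, and 2.95 in the Dppa2 siRNA libraries, and 2.75, 2.32, and 1.92 in the Dppa4 siRNA libraries. Ttpa, the transfer protein of vitamin E, measured 3.43, 2.95, and 3.19 in the control libraries, 2.18, 2.8, and 2.37 in the Dppa2 siRNA libraries, and 2.4, 2.36, and 2.66 in the Dppa4 siRNA libraries. The decrease of Crabp1 was the largest of the 3, and the control libraries of Crabp1 ranged over more than 1 log2 unit.

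Enzymes of amino acid and amine metabolism included Hdc, which makes histamine, at 19.5% and 20%, Gatm, of creatine synthesis, at 50.2% and 57.6%, Gnmt, a methyltransferase of glycine, at 34.1% and 25.8%, Nat8l, which makes N-acetylaspartate, at 45.8% and 40.3%, and Qpct, which forms pyroglutamate, at 42.7% and 53.1%. Those of sugar metabolism were Pklr, the liver pyruvate kinase, at 35.3% and 35.2%, Gpd1, the glycerol phosphate dehydrogenase, at 18.5% and 41.9%, Ldhd, the D-lactate dehydrogenase, at 56.5% and 26.6%, and Epm2a (laforin), a glycogen phosphatase, at 24.5% and 16.7%. Galnt6, which starts mucin-type glycans, was left at 41.2% and 47.6%.

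Lipid genes included Ptgds, which makes prostaglandin D, at 27.6% and 15.8%, with 0 reads in library C of Dppa4 siRNA. The lipase genes Mgll and Lipo1 were left at 42.3% and 44% and at 52.3% and 40.8% (12.8% of the stretches of Lipo1 are found elsewhere), the phospholipase gene Pla2g4f at 19.4% and 31.3%, the lipid transporter genes Spns2 and Atp10a at 49% and 38.7% and at 49.3% and 58.5%, and Echdc3, of the enoyl-CoA hydratase family, at 28% and 22.5%. Detoxification genes were Aldh3b1 at 33.3% and 19.6% and Gstm3 at 57.1% and 56.5%. Gstm3 shares 29.2% of its stretches with other Gstm genes, and the acetyltransferase-like gene Cml2, left at 14% and 18.4%, shares 18.1%.

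Transporters and channels were the potassium channel Kcnn2 at 39.7% and 41.3%, Clca4 at 35.8% and 57%, the phosphate carrier Slc34a3 at 44.1% and 36.6%, and Slc22a23 at 60.6% and 52.6%. The carbonic anhydrase Car4 was left at 54.7% and 57% and the iron carrier transferrin (Trf) at 37.3% and 40.3%, with 63.5% of the exons of Trf shared with an overlapping annotated gene.

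Of 19 genes of RNA, ubiquitin, and other functions, with a median of 48.2% of the control level with Dppa2 siRNA and 46.1% with Dppa4 siRNA, Fbxo15 is an F-box gene long used as a marker of ESCs. It measured 7.47, 7.63, and 7.75 in the control libraries, 6.77, 6.55, and 6.79 in the Dppa2 siRNA libraries, and 6.54, 6.49, and 6.47 in the Dppa4 siRNA libraries, and was left at 53.2% and 46.1% of control. Spink3, a trypsin inhibitor, measured 3.85, 4.19, and 5.48 in the control libraries, 3.55, 3.44, and 3.56 in the Dppa2 siRNA libraries, and 3.79, 3.63, and 3.68 in the Dppa4 siRNA libraries. Khdrbs3, a splicing regulator, measured 4.17, 4.13, and 4.42 in the control libraries, 3.54, 3.39, and 3.32 in the Dppa2 siRNA libraries, and 3.08, 3.23, and 3.26 in the Dppa4 siRNA libraries. Fbxo15 and Khdrbs3 had closely spaced libraries, whereas control library A of Spink3 lay about 0.06 above the highest knockdown library and control library C lay far above it.

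Ccno, a cyclin-like gene of multiciliated cells, was left at 20.5% and 34.8%, and Lonrf3, a RING finger gene, at 20.2% and 21.2%. Ubiquitin ligase genes were Siah2 at 48.2% and 49.7%, Hecw2 at 45.4% and 53.8%, Rnf219 at 49.5% and 51%, Trim36 at 48.6% and 45.6%, Trim47 at 56.9% and 57.4%, Trim54 at 49.9% and 49.8%, and the adaptor Kbtbd13 at 26.7% and 34.6%. The Y-linked E1 enzyme gene Ube1y1 was left at 21.3% and 36.9%, and 49.0% of its stretches are shared with other loci. RNA-binding genes were Celf2 at 54.2% and 37.5%, Bicc1 at 39.7% and 40.8%, and Magohb, of the exon junction complex, at 48.2% and 46.4%. An overlapping annotated gene on the same strand shares 30.2% of the exons of Magohb. The remaining genes were the sorting nexin Snx25 at 48.2% and 35.8%, the chaperone Dnaja4 at 59.5% and 53%, and the melanocyte gene Mlana at 24.6% and 31.5%.

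The genes whose function is not well known numbered 12 and had a median of 42.6% of the control level with Dppa2 siRNA and 43.6% with Dppa4 siRNA. Marveld1 (chr19:42147400-42151695, plus strand) measured 5.09, 5.27, and 5.21 in the control libraries, 4.14, 3.99, and 4.0 in the Dppa2 siRNA libraries, and 4.09, 3.89, and 3.82 in the Dppa4 siRNA libraries. Nt5dc3, whose exons overlap another annotated gene over 20.5%, measured 3.34, 3.19, and 3.05 in the control libraries, 2.53, 2.38, and 2.29 in the Dppa2 siRNA libraries, and 2.52, 2.49, and 2.47 in the Dppa4 siRNA libraries. D1Ertd622e measured 2.25, 2.12, and 1.95 in the control libraries, 0.82, 1.54, and 1.13 in the Dppa2 siRNA libraries, and 0.85, 0.86, and 1.03 in the Dppa4 siRNA libraries. Of these, D1Ertd622e had the widest spread, with Dppa2 siRNA library B far above the other 2, and by the rule no knockdown library reached the controls.

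AU022751 and Fam124a had among the largest decreases of all 204 genes. AU022751 (chrX:6081219-6083419, minus strand) measured 2.03, 2.0, and 2.07 in control, -1.28, -1.72, and -0.52 in Dppa2 siRNA, and -1.04, -1.24, and -0.83 in Dppa4 siRNA cells, and was left at 10.8% and 11.9%. Fam124a (chr14:62555737-62608486, plus strand) measured 1.49, 1.55, and 1.77 in control, -2.38, -1.98, and -0.74 in Dppa2 siRNA, and -1.24, -1.61, and -1.08 in Dppa4 siRNA cells, and was left at 10.1% and 13.3%. Both genes stood more than 2 log2 units below the lowest control in every knockdown library. The others were Wdr20b at 30.9% and 38.5%, Pdgfrl at 40% and 44.9%, Tmem158 at 50.5% and 31.3%, Fam184a at 61.4% and 56.7%, Wdr64 at 25.6% and 55.4%, Tmem184a at 38.3% and 43.4%, and Fam189a1 at 56.7% and 58.7%.

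The 204 genes were spread over the genome, with 26 on chromosome 2 (2.91% of its named genes with a control mean above 0), 10 on the X chromosome (2.57%), and none on chromosome 16 (of 330). A few were neighbours, with starts within 200 kb of each other. On chromosome 11, Myo15b (chr11:115861612-115892603), Itgb4 (chr11:115974709-116008412), Unc13d (chr11:116062095-116077961), Trim47 (chr11:116105752-116127210), and Evpl (chr11:116220559-116238077) lay in 1 stretch, with 2 to 4 tested genes between neighbours, apart from Unc13d and Trim47 with 1 between them. Pou4f1 and Rnf219 on chromosome 14 were 15.2 kb apart on the minus strand with no tested gene between them. The other pairs were Sp5 and Gad1 on chromosome 2, Pdlim3 and Snx25 on chromosome 8, and Dnaja4 and Crabp1 as well as Cdcp1 and Tmem158 on chromosome 9, at 65.9 to 148 kb.

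The knockdowns were then compared with each other, which is the only comparison of the 204 genes that the rule did not use directly, although it holds both differences within 1 window. None of the 204 genes differed between Dppa4 and Dppa2 siRNA by limma at an adjusted p below 0.05, and the lowest adjusted p was 0.586. Over all tested genes, 3 (0.0205%) passed. At an unadjusted p below 0.05 there were 21 of the 204 (10.3%), beside 6.76% of all tested genes. The median size of the difference was 0.21 in the 204 genes and 0.14 in all tested genes. The 2 comparisons with control share their control libraries, so the closeness of the points to the diagonal in the plot of the 2 differences cannot be read as agreement between independent experiments.

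**Figure D5:**
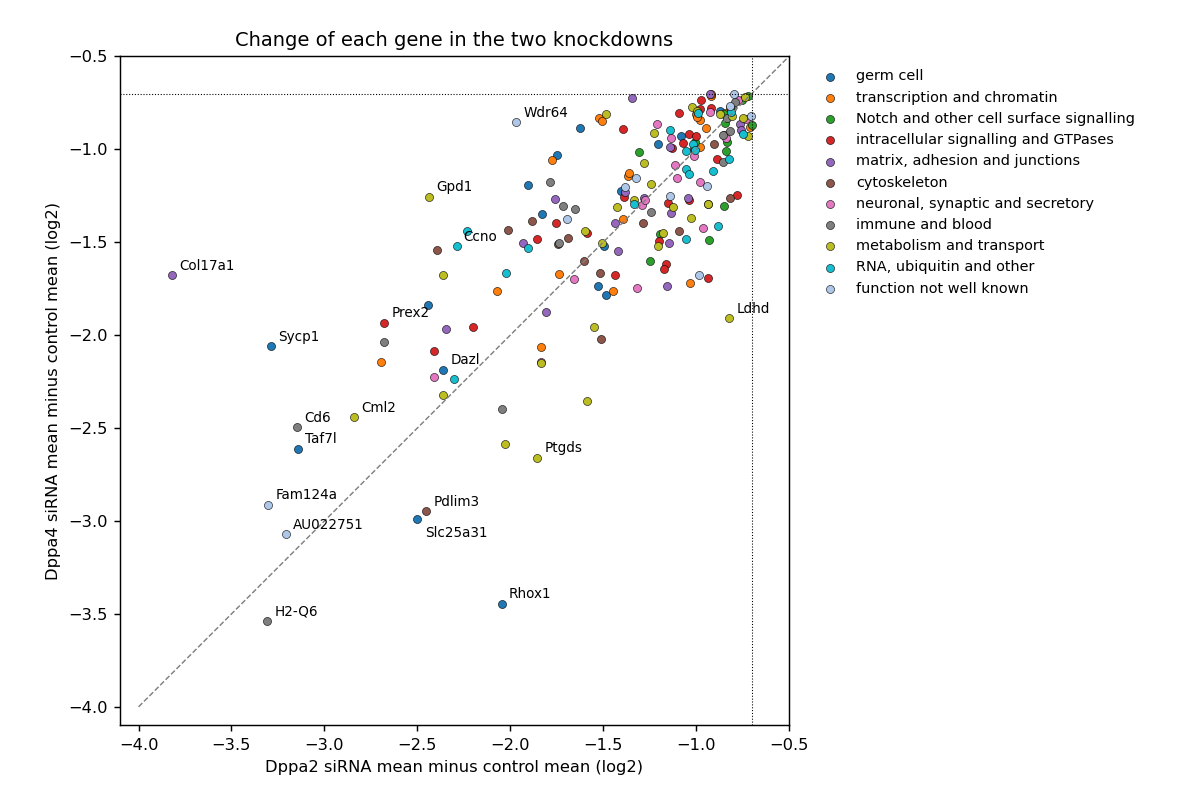
Difference from the control mean on the log2 scale with Dppa2 siRNA (horizontal axis) and Dppa4 siRNA (vertical axis) for each of the 204 genes, coloured by function, with equal differences on the dashed line and the limit of 0.7 on the dotted lines. Most points lie between -2 and -0.7 on both axes, and Col17a1 and Rhox1 are farthest from the dashed line on either side.

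In 39 of the 204 genes the Dppa2 and Dppa4 siRNA libraries did not overlap, with Dppa4 higher in 22 and lower in 17, beside 17.6% of all tested genes with no overlap in either direction. The difference of Dppa4 from Dppa2 siRNA was 0.77 (SE 0.16, unadjusted p = 0.001, adjusted p = 0.586) for Ccno and 0.72 (SE 0.15, unadjusted p = 0.00102, adjusted p = 0.586) for Mov10l1. For Col17a1 it was 2.14 (SE 0.54, unadjusted p = 0.00312, adjusted p = 0.586), and for Gpd1 it was 1.18 (SE 0.26, unadjusted p = 0.00137, adjusted p = 0.586). In the opposite direction, it was -1.09 (SE 0.30, unadjusted p = 0.00574, adjusted p = 0.608) for Ldhd and -1.40 (SE 0.49, unadjusted p = 0.0195, adjusted p = 0.678) for Rhox1. None of these passed after adjustment, and such a result does not show that the knockdowns acted alike on these genes.

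Among the genes of the 9 lists in the plot of gene lists that are not part of the 204, 9 passed against control in 1 of the knockdowns only. None of these differed between Dppa4 and Dppa2 siRNA by limma, with adjusted p from 0.586 for Ltbp1 to 0.99 for Col5a1. The 3 genes that passed in this comparison over the whole table were Dppa2, Dppa4, and 4930486L24Rik, of which the last was named after its value was seen.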

How the data were processed

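Polyadenylated RNA of E14 ESCs was measured in 9 libraries, 3 per siRNA. The authors trimmed the reads with Trim Galore (version 0.4.5 per the labels), used HISAT2 (2.0.5) for alignment to GRCm38, quantitated mRNA by strand in SeqMonk, matched the cumulative distributions of the libraries, and deposited log2 values for 25965 genes. These log2 values are not counts, so limma (3.58.1 in R 4.3.3) was used here in place of the count test of the study. Empirical Bayes with an intensity trend was fitted over all 9 libraries for 14601 genes with a value above -2 in at least 3 libraries, and p-values were adjusted by Benjamini-Hochberg, with 0.05 as the threshold. The fit was tested on simulated data. Reads per value were inferred from the spacing of low values, up to 300 reads, so the depth is approximate and intervals for single genes are not given.

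The 204 genes and the gene lists were chosen with earlier results of these data known. Each gene was put in 1 group by textbook function. The 3 genes with the highest control mean per group are given in every library, the others by percentage of control, and other genes of the lists are named where they passed the test. Genes given in every library beyond those, gene pairs given between the knockdowns, and list genes named without a call were chosen after their values were seen. The deposited coordinates were matched to GRCm38 gene models, by name and place for 192 genes and by place alone for 9, while 3 were not matched. A transcript was compared with all others in stretches of 50 bases at steps of 5 to find sequence shared with other genes. Promoters came from RefSeq (GRCm38.p6). Values were handled in Python 3.11.15 with pandas 2.3.3 and numpy 2.4.6, and figures were drawn with matplotlib 3.10.9. Other filters, scalings, rule limits, a replicate block, and fits without each library were tried. A few of the 204 genes and 1 gene list are not reported here, although the counts and medians over the 204 genes include these genes.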

Additional observations from a re-analysis of the deposited data

How the results depend on the processing

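The number of genes called by limma depended on the settings, and 3 libraries per group limit what can be detected. Against 502 calls with Dppa2 siRNA and 502 with Dppa4 siRNA, an added intensity difference filter left 279 and 284. Without any filter on low values there were 9140 calls with Dppa2 siRNA, of which 8245 were higher, and 7462 of these (90.5%) were genes at the lowest value in all 9 libraries, where that value differs slightly between libraries. Between the knockdowns, 3 calls became 5 without the filter. The other filters and scalings, and a fit without the trend, stayed within 1.5 times of these counts.

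Leaving out 1 library at a time gave 120 to 413 calls with Dppa2 siRNA, 149 to 496 with Dppa4 siRNA, and 1 to 3 between the knockdowns. With Dppa2 siRNA there were 177, 120, and 301 calls without control A, B, and C, 255 and 233 without Dppa2 A and C, and 300 without Dppa4 B. With Dppa4 siRNA there were 149, 149, and 308 without control A, B, and C, and 206, 184, and 279 without Dppa4 A, B, and C. Between the knockdowns, 1 call was left without Dppa4 B or without Dppa4 C.

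Whether the letters pair the samples is not given in the sources used here. Deviations from the mean of 3 libraries are not independent, so their correlations cannot exclude pairing. Deviations of libraries with the same letter correlated from -0.58 to 0.37, and the highest correlation, 0.69, was between control A and Dppa2 B. With the replicate block there were 238, 212, and 1 calls with Dppa2 siRNA, with Dppa4 siRNA, and between the knockdowns.

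The rule was met by 204 genes, by 122 with a control mean above 1, by 117 with both differences of at least 1, and by 198 to 238 with 1 library left out, of which 176 to 201 were among the 204. Of 29 calls of other list genes, 10 held under every alternative in which the gene was tested, namely those of Mael, Sohlh2, and Syce1 in both comparisons, of Dlk1 with Dppa2 siRNA, and of Sohlh1, Nlrp4f, and Ltbp1 with Dppa4 siRNA (Sohlh1 was tested in 12 alternatives, the others in 16). Mael, Sohlh2, and Syce1 met the rule on values, so their calls rest on the values that the rule used. Sohlh1 dropped out of the test under the stricter filter and where a control library was left out. Those alternatives could therefore not challenge its call. The other 19 calls were lost under at least 1 alternative, and none reversed. The cause of these shifts was not tested.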
